A study of Mus musculus with 12 samples.

Results

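A set of 5 noncoding RNA genes, *Rn7sk*, *Rn7s1*, *Rn7s2*, *Rmrp*, and *Rpph1*, was followed in total RNA of the E12.5 mouse ventral spinal cord, out of 45777 genes in the tables. They were chosen by name because they hold the highest levels in these libraries, so their abundance is a description of the choice and carries no test. The tables give length-scaled transcript abundances (TPM), in which the values of all genes of a library add up to one fixed total. The data comprise 12 libraries: at the brachial level 3 were from *Isl2* +/- (Het) and 3 from *Isl2* knockout (KO) embryos, and likewise at the lumbar level. *Isl2* encodes a LIM homeodomain factor of motor neurons, and the KO allele replaces exons with a neomycin cassette in every cell of the embryo. The tissue was trimmed around the *Hb9::GFP* reporter of motor neurons, and it holds other ventral cells too. Libraries came from rRNA-depleted total RNA, so transcripts without a poly(A) tail were retained.

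7SK RNA (*Rn7sk*) is the scaffold that holds the elongation kinase P-TEFb inactive together with HEXIM proteins, and its release lets RNA polymerase II leave promoter-proximal pausing. 7SL RNA (*Rn7s1* and *Rn7s2*) is the backbone of the signal recognition particle, which brings ribosomes making secreted and membrane proteins to the endoplasmic reticulum. *Rpph1* is the catalytic RNA of RNase P, which trims the 5′ end of tRNA precursors, and *Rmrp* is the related RNA of RNase MRP, which takes part in rRNA processing. All are made by RNA polymerase III in dividing and postmitotic cells alike.

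In the GENCODE M21 transcripts of GRCm38, *Rn7s1* and *Rn7s2* were identical over all 300 bases, so reads cannot be assigned to one copy and the 7SL pair was read as one RNA. The start of the other RNAs is shown to set 7SK beside the ribonuclease RNAs. The first 120 bases of *Rn7sk* (chr9:78175303-78175633, minus strand) are shown with GATC in capitals, the motif of the 5′ hairpin to which HEXIM1 is known to bind. The first 120 bases of *Rmrp* (chr4:43492788-43493058, minus strand) and *Rpph1* (chr14:50807449-50807767, minus strand) are shown with nothing in capitals.
Rn7sk: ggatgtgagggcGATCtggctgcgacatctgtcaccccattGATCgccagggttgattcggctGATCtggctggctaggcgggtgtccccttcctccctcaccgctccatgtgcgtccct
Rmrp: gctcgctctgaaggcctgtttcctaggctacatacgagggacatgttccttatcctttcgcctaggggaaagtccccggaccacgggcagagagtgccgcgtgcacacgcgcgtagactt
Rpph1: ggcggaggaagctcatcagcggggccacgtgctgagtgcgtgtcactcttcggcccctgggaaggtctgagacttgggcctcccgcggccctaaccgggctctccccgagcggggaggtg

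GATC, which reads the same on both strands, occurred 3 times in *Rn7sk*, at positions 13, 42, and 64 from the first base. The motif was not particular to *Rn7sk* within the set, and of all 5627 transcripts of 250 to 350 bases, 63.3% held it. *Rn7sk* ended in 3 T, and 2.31% of those transcripts ended in TTT. GC content was 58.0% in *Rn7sk*, 64.2% in *Rmrp*, and 67.1% in *Rpph1*. *Rn7sk* had 1 relative of at least 80% identity over 80% of its length among GENCODE transcripts, *Rpph1* had 3 and *Rmrp* had 0, and apart from the 7SL pair itself none of these reached 95%.

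The deposited tables place the genes on GRCm38 (mm10) with ends that differ by a few bases from GENCODE. *Rn7sk* lies at chr9:78175302-78175633, 22.6 Mb from *Isl2* on the same chromosome. *Rn7s1* (chr12:69159295-69159593) and *Rn7s2* (chr12:69361183-69361481) lie 201.6 kb apart on opposite strands. *Rmrp* lies at chr4:43492785-43493059 and *Rpph1* at chr14:50807447-50807771. Each is a gene of its own, and none overlaps another listed gene on either strand.

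These 5 genes took between 23.7% and 38.2% of all TPM in a library. They held the 5 highest ranks in all 12 libraries, and the next gene was *Tuba1a*, an alpha-tubulin of young neurons, in each of them. The lowest member, *Rpph1*, ranged from 16056 to 38541 TPM, and *Tuba1a* from 8286.8 to 10989 TPM. TPM divides by transcript length, so the same genes took a far smaller part of the sequence itself, between 3.09% and 6.41% of the aligned bases. The share of TPM exceeded the share of bases by a factor of 5.87 to 7.66.

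The summed share was lowest in one library, KO replicate 2 of the brachial level. Brachial Het libraries gave 32.7%, 31.7%, and 35.3% of TPM, and brachial KO libraries gave 31.2%, 23.7%, and 31.9%. Lumbar Het libraries gave 32.6%, 34.5%, and 36.4%, and lumbar KO libraries gave 30.9%, 34.004%, and 38.2%. Group means were 33.3% ± 1.87 (SD, n = 3) in brachial Het and 28.9% ± 4.56 (SD, n = 3) in brachial KO, or 31.6% in brachial KO without replicate 2. At the lumbar level they were 34.5% ± 1.93 (SD, n = 3) in Het and 34.4% ± 3.71 (SD, n = 3) in KO. Genotypes overlapped at both levels, and 2 of 3 brachial KO libraries lay below all brachial Het libraries. In aligned bases the group means were 5.26%, 4.09%, 5.61%, and 5.55% in the same order.

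**Figure D1:**
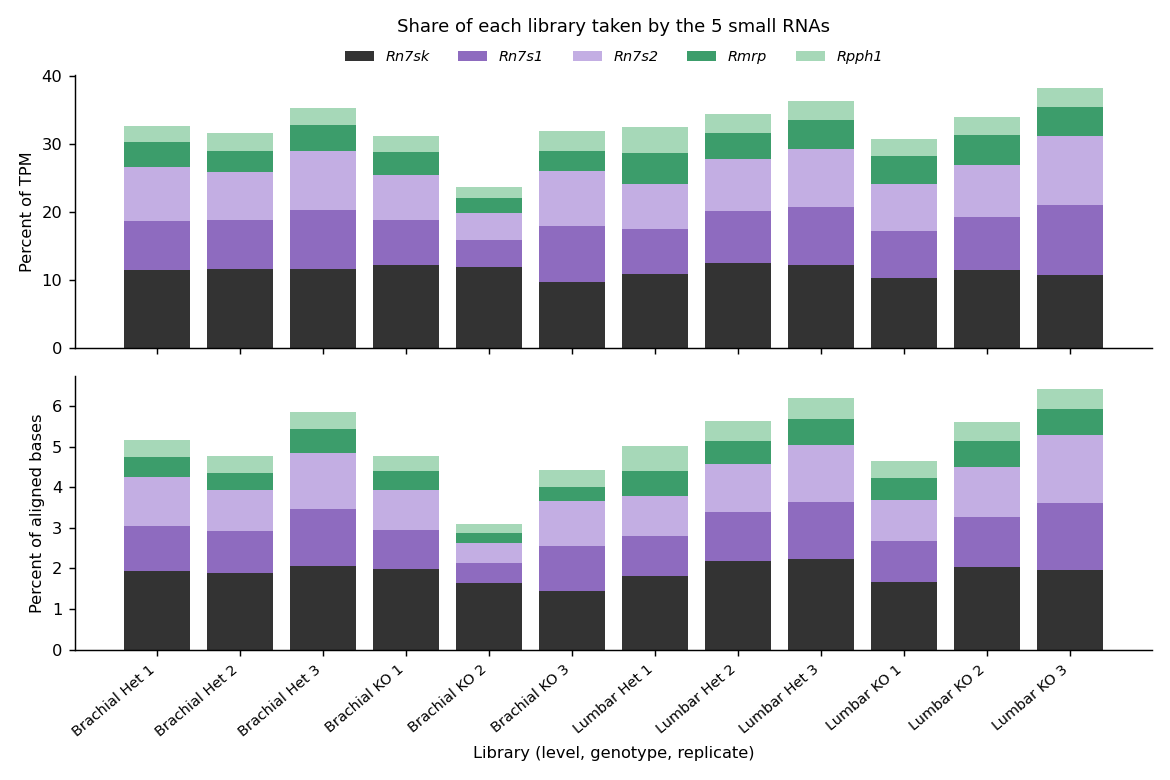
Stacked bars give the percent of TPM (upper) and the percent of aligned bases (lower) taken by each of the 5 genes in each of the 12 libraries. Bars reach 23.7% to 38.2% of TPM and 3.09% to 6.41% of bases, with brachial KO replicate 2 lowest on both scales.

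Values given without brachial KO replicate 2 were added after seeing the data, apart from the planned leaving out of each library. That library stood apart from the others in its summed share. Its 7SL share was 7.83% of TPM against a mean of 14.9% in the other 2 brachial KO libraries, and *Rmrp* and *Rpph1* together took 3.84% against 5.74%, whereas *Rn7sk* took 12.01% against 10.97%. The *Rn7sk* contrast turns after the rescaling described below, to 96880 against 104400 rescaled TPM. Its depth, 5.76 Gb of aligned bases, lay inside the range of all libraries (4.48 to 6.64 Gb), and the least deep library was brachial KO replicate 3. Annotated rRNA genes took 0.328% to 0.394% of TPM in the brachial KO libraries and 0.145% to 0.247% in brachial Het, and small nuclear RNA genes other than 7SK were lowest in brachial KO replicates 2 and 3, at 0.138% and 0.163%. Erythroid markers, from blood in the dissection, were above 0 in KO against Het for 8 of 8 genes at each level, with medians of 0.45 and 0.39 on the log2 scale. Of all genes outside the set, 49.7% lay above 0 in brachial and 48.3% in lumbar KO. The part of these measures in the results was not tested. Of 9 motor neuron markers all passed the filter, and their sum ran from 439 to 523 rescaled TPM in the brachial and from 198 to 336 in the lumbar libraries. *Prph*, a neuronal intermediate filament, differed most between levels in absolute terms, with group means of 309 and 261 in brachial Het and KO and 61.6 and 35.3 in lumbar Het and KO, whereas *Mnx1*, the motor neuron factor whose promoter drives the reporter, had means of 42.3 to 52.9. *Prph* and *Slc5a7*, the choline transporter, were called lower at the lumbar level, by 2.62 and 1.10 on the log2 scale (limma, adjusted p = 1.687e-07 and 2.188e-05). These are 2 of the 9 markers, where 18.9% of all genes were called. At the lumbar level 6 of the 9 lay above 0 (0.09 to 0.44, none called), so the sum follows *Prph* and most of the list runs the other way. Of other cell types, 2 of 4 endothelial, 4 of 5 microglial and macrophage, and 2 of 3 mesenchymal genes were called lower at the lumbar level. So were 1 of 4 Schwann and neural crest and 1 of 6 pan-neuronal genes. Of 6 neural progenitor genes, 4 were called higher and 2 lower, and no erythroid or sensory ganglion gene was called. The part of all these markers in the level comparison was not tested. For the *Hox* genes, 4 of 4 brachial and 4 of 4 lumbar *Hox* genes were called between levels as labelled, where 18.9% of all genes were called. *Isl2* itself, rescaled as described next, was 0.60 lower on the log2 scale in brachial KO (SE 0.18, limma, adjusted p = 0.358) and 0.34 lower in lumbar KO (SE 0.13, adjusted p = 0.997), and each KO library lay below each Het library of its level.

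To compare levels between libraries, TPM was divided by median-of-ratios size factors, which ask that the typical expressed gene be equal between libraries, and log2(value + 0.1) was fitted with limma over all genes above a mean TPM of 0.5. A gene counted as called in KO against Het when its log2 difference passed 0.5 with an unadjusted p under 0.05, the study's threshold, and between levels when its adjusted p was under 0.05. The study applied its threshold to DESeq2 results, which were not repeated here because no counts are given. All 5 genes passed the filter. As all libraries are bulk tissue, fewer cells of a type and less RNA per cell cannot be told apart.

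7SK was the steadiest of the set. *Rn7sk* stood at 115203, 117438, and 116296 TPM in brachial Het and at 122116, 120106, and 97328 TPM in brachial KO. It stood at 109852, 125530, and 122223 TPM in lumbar Het and at 103246, 115856, and 108283 TPM in lumbar KO. Groups overlapped, and the highest library exceeded the lowest 1.29-fold. On the rescaled log2 scale KO differed from Het by −0.21 at the brachial level (SE 0.46, limma, adjusted p = 0.835) and by −0.13 at the lumbar level (SE 0.34, adjusted p = 0.999). The 95% interval of the brachial difference ran from −1.29 to 0.87, which leaves room for changes beyond 2-fold. These standard errors rest on a variance trend over all genes. For the same brachial difference of *Rn7sk* the error was 0.12 without the trend (adjusted p = 0.46), 0.30 with a pseudocount of 0.001, 0.67 with a pseudocount of 1, and 1.143 with no filter.

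7SL varied most. *Rn7s1* stood at 71983, 71012, and 86578 TPM in brachial Het and at 66443, 39144, and 82199 TPM in brachial KO. It stood at 65880, 76247, and 85553 TPM in lumbar Het and at 69133, 76585, and 102026 TPM in lumbar KO. The low brachial value and the high lumbar value both came from single KO libraries, and genotypes overlapped at each level. *Rn7s2* followed it at 0.994 to 1.005 times its TPM in 11 libraries and 1.101 times in brachial Het replicate 1, as identical copies between which reads are divided. Both copies together took 15.6% ± 1.60 of TPM in brachial Het, 12.51% ± 4.34 in brachial KO, 15.2% ± 1.97 in lumbar Het, and 16.5% ± 3.45 in lumbar KO (SD, n = 3 each). The log2 difference of *Rn7s1* was −0.52 in brachial KO (SE 0.47, limma, adjusted p = 0.59) and −0.13 without replicate 2, and it was 0.10 in lumbar KO (SE 0.34, adjusted p = 0.999). *Rn7s2* gave −0.57, −0.18 without replicate 2, and 0.10.

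The RNAs of the 2 ribonucleases came next. *Rmrp* stood at 36460, 31132, and 39202 TPM in brachial Het and at 33899, 22342, and 29522 TPM in brachial KO. It stood at 45341, 38176, and 41931 TPM in lumbar Het and at 40890, 43734, and 42170 TPM in lumbar KO. Genotypes overlapped at each level, and 5 of 6 lumbar libraries lay above all 6 brachial ones. *Rpph1* stood at 24464, 26228, and 24377 TPM in brachial Het and at 23236, 16056, and 28211 TPM in brachial KO. It stood at 38541, 28753, and 28822 TPM in lumbar Het and at 26050, 26906, and 27713 TPM in lumbar KO. As deposited, lumbar KO lay below lumbar Het without overlap for *Rpph1*, as the genotypes did for 8.61% of all genes on that scale, and after rescaling the lumbar genotypes overlapped. In brachial KO the log2 difference was −0.50 for *Rmrp* (SE 0.33, limma, adjusted p = 0.468) and −0.36 for *Rpph1* (SE 0.32, adjusted p = 0.583), and without replicate 2 it was −0.25 and −0.05. In lumbar KO it was 0.01 for *Rmrp* and −0.25 for *Rpph1* (adjusted p = 0.999 for both).

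**Figure D2:**
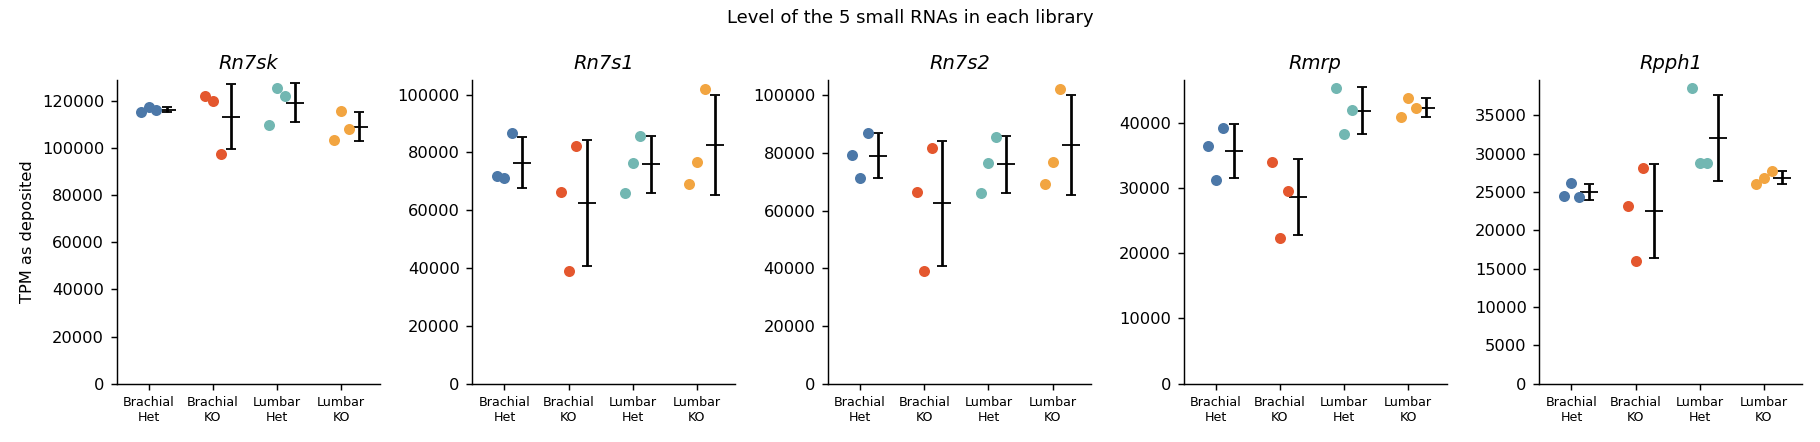
Points give TPM as deposited of each gene in each library, and the bar beside each group gives its mean and SD over 3 libraries. *Rn7sk* lies between 97328 and 125530 TPM, whereas *Rn7s1* spans 39144 to 102026 TPM.

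After rescaling, no gene of the set separated by genotype at either level. In brachial KO 0 of 5 were called, where 3.14% of all tested genes were called, and 0 of 5 had genotypes that did not overlap after rescaling, where 20.2% of all genes did. In lumbar KO 0 of 5 were called against 1.76% of all genes, and 0 of 5 did not overlap against 9.94%. With 3 libraries against 3 an exact permutation test cannot go below p = 0.1, and its two-sided p was between 0.2 and 0.4 for the brachial and between 0.2 and 0.9 for the lumbar differences of the 5 genes. The difference between the lumbar and brachial KO effects was 0.08 for *Rn7sk*, 0.62 for *Rn7s1*, 0.67 for *Rn7s2*, 0.51 for *Rmrp*, and 0.11 for *Rpph1* on the log2 scale. Adjusted p-values from limma lay between 0.805 and 0.971, 0 of 5 were called, and 0% of all 16736 genes were called, with 743 genes under an unadjusted p of 0.05. When 1 library was left out, this difference ran from 0.24 to 0.88 for *Rn7s1*, 0.29 to 0.92 for *Rn7s2*, and 0.26 to 0.70 for *Rmrp*.

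*Rmrp* and *Rpph1* stood higher at the lumbar than at the brachial level, short of the threshold. The log2 difference was 0.54 for *Rmrp* (SE 0.20, limma, adjusted p = 0.0726, 95% interval 0.12 to 0.97) and 0.45 for *Rpph1* (SE 0.18, adjusted p = 0.0975, 95% interval 0.07 to 0.84). An exact two-sided permutation test of 6 against 6 libraries gave p = 0.00649 for *Rmrp* and p = 0.00866 for *Rpph1*, not adjusted for the number of genes. *Rn7s1* differed by 0.35 (SE 0.28, adjusted p = 0.428), *Rn7s2* by 0.33 (SE 0.28, adjusted p = 0.46), and *Rn7sk* by 0.13 (SE 0.23, adjusted p = 0.751). So 0 of 5 were called between levels, against 18.9% of all genes, and 0 of 5 had levels that did not overlap, against 8.32%. *Rmrp* passed the threshold on TPM as deposited (0.41, SE 0.11, adjusted p = 0.0206), on which 17.1% of all genes were called, and on TPM rebuilt without the 5 genes (0.48, adjusted p = 0.0286), on which 19.5% were called. Without brachial KO replicate 2 the rescaled difference of *Rmrp* was 0.40 (limma, adjusted p = 0.124) and that of *Rpph1* 0.31 (adjusted p = 0.163). Those of *Rn7s1*, *Rn7s2*, and *Rn7sk* were 0.14, 0.12, and 0.11. *Rmrp* still passed without that library on TPM as deposited (0.32, adjusted p = 0.0284) and rebuilt (0.36, adjusted p = 0.0337). The study used 3 animals per genotype, so brachial and lumbar libraries may share embryos, and the p-values treat them as separate. By sex-linked genes, 3 of 6 same-numbered brachial and lumbar pairs of a genotype had the same sex. The same number thus need not mean the same embryo.

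**Figure D3:**
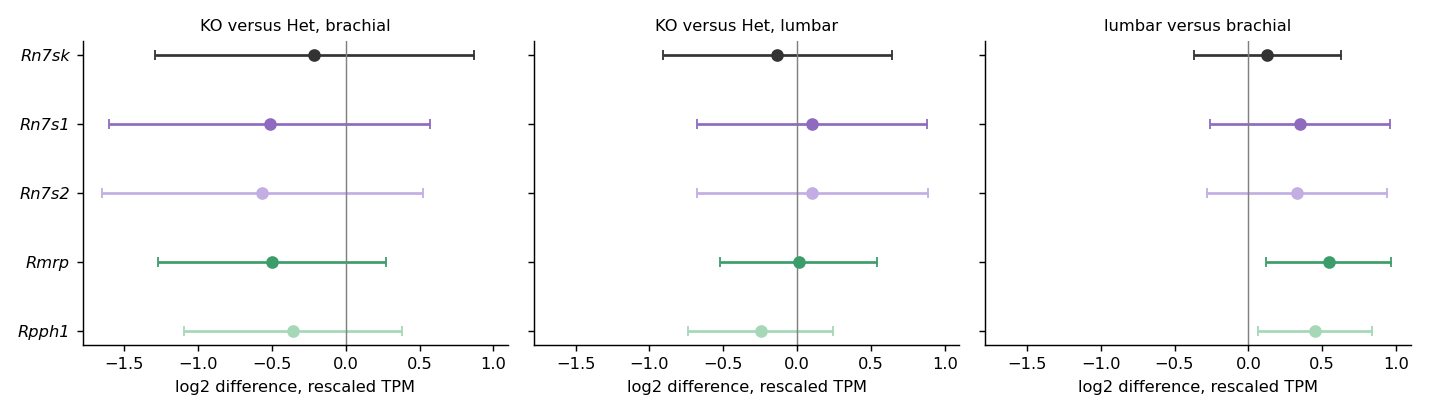
Points give the log2 difference of rescaled TPM for each gene in the 3 comparisons, and bars give its 95% interval from limma. Bars cross 0 in both genotype comparisons for all 5 genes, and lie above 0 between levels for *Rmrp* (0.54) and *Rpph1* (0.45).

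The 5 RNAs did not vary as one block. The standard deviation within groups on the rescaled log2 scale was 0.16 for *Rn7sk*, 0.43 for *Rn7s1*, 0.43 for *Rn7s2*, 0.27 for *Rmrp*, and 0.29 for *Rpph1*, against a median of 0.11 over 1205 genes with a mean of at least 100 TPM. The ratio of 7SL to 7SK ran from 0.652 in brachial KO replicate 2 to 1.886 in lumbar KO replicate 3. As a description over 12 libraries that share size factors, Pearson's r of rescaled log2 TPM was 0.873 between *Rmrp* and *Rpph1*, 0.832 between *Rn7s1* and *Rmrp*, and 0.58 between *Rn7sk* and *Rn7s1*. Without brachial KO replicate 2 these values were 0.644, 0.525, and 0.475.

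The share held by the 5 genes set how much TPM remained for all others. From 61.8% to 76.3% of TPM was left, so the same fraction of the other RNA reads as 1.236 times as many TPM in the library with most left as in the library with least. In brachial KO replicate 2 the other genes were multiplied by 1.143 relative to the mean of brachial Het. The median-of-ratios size factor was computed from the same TPM values, so it is not independent of the TPM left. It lay on the same side of the average as the TPM left in 11 of 12 libraries, and ranged from 0.901 in lumbar Het replicate 3 to 1.240 in brachial KO replicate 2. In that brachial library its log2 was 0.31, against 0.18 for the TPM left.

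The genotype comparison at the brachial level depended on the scaling and on single libraries. TPM left to other genes differed by 0.09 on the log2 scale between brachial KO and Het, and the median of the 16930 other genes, as deposited, lay 0.16 above 0, with 76.9% of them above 0. As deposited, 47 genes were lower and 1211 higher past the unadjusted threshold, 7.43% of those tested. Rebuilding TPM without the 5 genes took the median to 0.07 and the counts to 81 lower and 601 higher genes (4.03%), and median-of-ratios scaling took them to 0.00 and to 140 lower and 391 higher. At an adjusted p under 0.05 from limma, 0 genes passed as deposited, 1 after rebuilding, and 1 after median-of-ratios scaling. Of the 1211 genes higher as deposited, 601 (49.6%) stayed called after rebuilding and 391 (32.3%) after median-of-ratios scaling. Of the 47 lower genes 46 and 47 stayed called. Without brachial KO replicate 2 the median as deposited was 0.09, with 104 lower and 454 higher genes. The counts also moved with single libraries under median-of-ratios scaling alone: the 391 higher genes became 1116 without brachial KO replicate 1, 596 without brachial Het replicate 2, 157 without brachial KO replicate 3, and 146 without brachial Het replicate 3, and the 140 lower genes became 310 without brachial KO replicate 1.

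*Isl2* shows what this does to a single gene. In brachial KO its log2 difference was −0.43 as deposited, −0.52 after rebuilding, and −0.60 after median-of-ratios scaling. In these limma fits *Isl2* therefore passed the threshold under the second and the third scaling but not under the first. *Polr2k*, a subunit shared by the nuclear RNA polymerases, went from −0.45 through −0.53 to −0.61 and crossed it likewise. *Tuba1a*, the most abundant gene outside the set, went from −0.07 to −0.15 and −0.23, none past the threshold.

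At the lumbar level the mean shares of the genotypes were close, and the scalings gave similar counts. TPM left differed by 0.00 on the log2 scale, the median of the other genes as deposited was 0.00, and 113 genes were lower and 157 higher (1.64%), against 121 and 163 after rebuilding (1.72%) and 129 and 162 after median-of-ratios scaling. At an adjusted p under 0.05 from limma, 0 genes passed under each of these scalings. Without lumbar KO replicate 2, 142 were called lower and 310 higher after median-of-ratios scaling. Between levels the shift ran the other way. TPM left was 0.07 lower on the log2 scale at the lumbar level, the median of the other genes as deposited was −0.13, and 2214 genes were lower and 646 higher. After rebuilding, 2181 were lower and 1081 higher with a median of −0.06, and after median-of-ratios scaling 1694 were lower and 1467 higher with a median of 0.01. Without brachial KO replicate 2, 1409 genes were lower and 561 higher as deposited, with a median of −0.08.

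**Figure D4:**
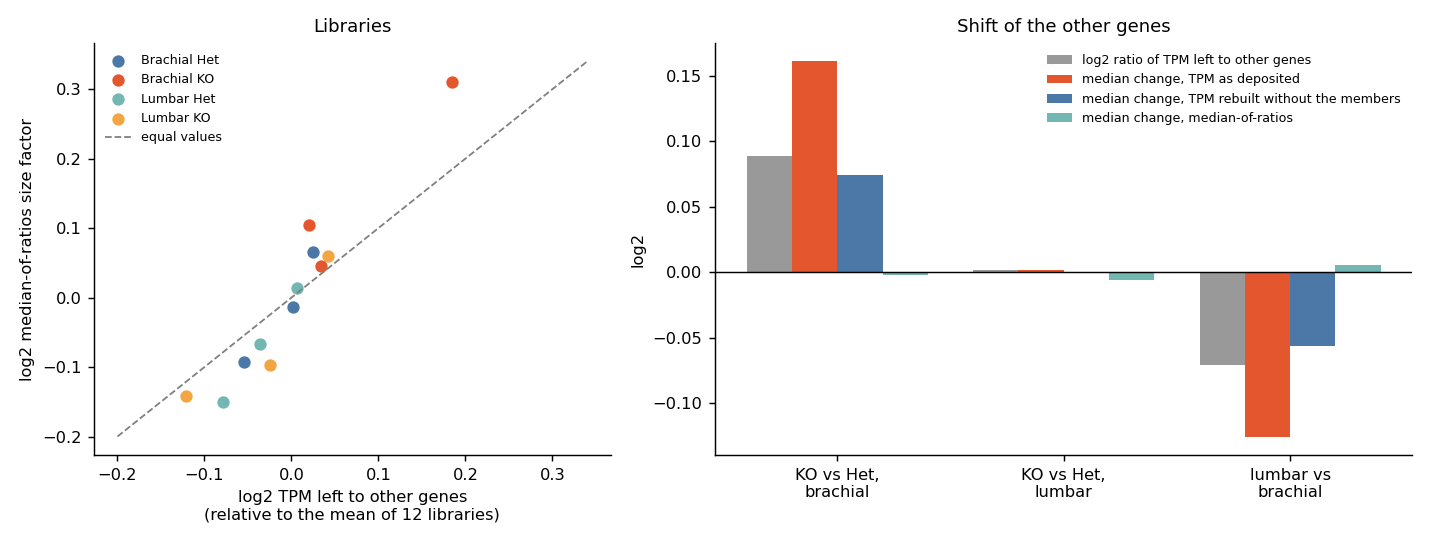
Left, each point is a library, with the log2 of TPM left to other genes on the x axis and the log2 size factor on the y axis, and the dashed line marks equal values. Right, bars give, for 3 comparisons, the log2 ratio of TPM left and the median log2 change of all other genes under 3 scalings, with the brachial median falling from 0.16 as deposited to 0.07 and 0.00.

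The protein partners of these RNAs were read from lists of gene names. Of 12 genes of the 7SK particle and P-TEFb, 0 were called in KO at either level, against 3.14% and 1.76% of all genes (medians 0.07 and 0.01 on the log2 scale, against 0.00 and −0.01 over all genes). *Srsf2*, a splicing factor linked to 7SK at promoters, was the highest at 209 ± 25.0 rescaled TPM in brachial Het and 195 ± 18.0 in brachial KO (SD, n = 3). *Aff4*, a scaffold of the super elongation complex, was next and stood at 51.3 ± 2.65 and 67.5 ± 12.1, a log2 difference of 0.38 that did not reach the threshold. As deposited *Aff4* was called higher in brachial KO (0.55, limma, adjusted p = 0.277), 8.33% of the list against 7.43% of all genes, with 1 of 12 below 0 and a median of 0.23. Between levels, *Hexim1* and *Hexim2*, the inhibitors that 7SK activates, fell by 0.32 (limma, adjusted p = 0.0296) and 0.41 (adjusted p = 0.0299) at the lumbar level. *Ccnt2*, a cyclin of P-TEFb, rose by 0.20 (adjusted p = 0.007) and *Ell2*, an elongation factor, by 0.45 (adjusted p = 0.043). These are 4 of 12 (33.3%), where 18.9% of all genes were called between levels. As deposited, where 17.1% of all genes were called, *Hexim1* (−0.45) and *Hexim2* (−0.55) were still called, and *Ccnt2* (0.07) and *Ell2* (0.32) were not.

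Of 10 signal recognition particle genes tested, 0 were called in KO (against 3.14% and 1.76% of all genes in brachial and lumbar KO) or between levels (against 18.9%), and the brachial median was −0.11. *Srp14* and *Srp9*, which bind the Alu domain of 7SL as a pair, were the highest. *Srp14* stood at 213 ± 4.05 rescaled TPM in brachial Het and 174 ± 16.1 in brachial KO, a log2 difference of −0.29 with no overlap between genotypes (limma, adjusted p = 0.358). *Srp9* stood at 91.1 ± 8.54 and 75.5 ± 5.89, a difference of −0.27, also without overlap, where 20.2% of all genes did not overlap. As deposited these differences were −0.13 and −0.10, with 2 of 10 genes below 0 in place of 6 and a median of 0.06, and *Srp68*, a protein of the particle's S domain, was called higher (0.52, limma, adjusted p = 0.277), where 7.43% of all genes were called.

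Of 11 protein subunits of RNase P and RNase MRP, 0 were called in KO, against 3.14% of all genes in brachial and 1.76% in lumbar KO, with 9 of 11 below 0 and a median of −0.19 at the brachial level and 6 of 11 and −0.04 at the lumbar level. *Pop4* and *Rpp25l*, the highest, differed by −0.19 and −0.20 in brachial KO. Between levels *Pop1*, the largest subunit, rose by 0.44 (limma, adjusted p = 0.0234) and *Rpp30* by 0.24 (adjusted p = 0.0222) at the lumbar level, 18.2% of the list against 18.9% of all genes. As deposited neither was called between levels (0.31 and 0.11), and *Pop5* was called lower (−0.23, adjusted p = 0.038), 9.09% of the list against 17.1% of all genes. The brachial count as deposited was 8 of 11 below 0 with a median of −0.03. As a share of TPM the summed subunits overlapped, at 0.0331% to 0.0348% in brachial Het and 0.0332%, 0.0359%, and 0.0307% in brachial KO.

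Of 18 RNA polymerase III subunits, 1 (5.56%) was called in brachial KO, against 3.14% of all genes, with 15 of 18 below 0 and a median of −0.18. As deposited, 9 of 18 lay below 0 with a median of −0.01, and 13 of 18 with −0.10 after rebuilding. The summed share of TPM was 0.0711% to 0.0728% in brachial Het and 0.0698%, 0.0766%, and 0.0660% in brachial KO, so the genotypes overlapped. The called subunit after median-of-ratios scaling was *Polr2k*, at 64.2 ± 5.83 rescaled TPM in Het and 42.1 ± 6.20 in KO (log2 difference −0.61, SE 0.12, limma, adjusted p = 0.358), with no overlap, where 20.2% of all genes did not overlap. The highest subunits, *Polr1d* and *Polr2f*, shared with other polymerases, each differed by −0.20. In lumbar KO 0 were called, against 1.76% of all genes. Between levels *Polr2k* (0.36, adjusted p = 0.047) and *Polr3f* (0.21, adjusted p = 0.0239) were higher at the lumbar level. Of 20 initiation and control genes, *Pou2f1*, an octamer factor that can act at 7SK-type promoters, was called higher in brachial KO (0.63, SE 0.26, adjusted p = 0.358) with overlapping genotypes, 5% of the list against 3.14% of all genes, and 0 were called in lumbar KO, against 1.76%. *Ssb*, which binds the U-rich ends of new polymerase III transcripts, and *Maf1*, a repressor of the polymerase, were the highest and differed by −0.20 and −0.16 in brachial KO. *Zfp143*, an activator of snRNA-type promoters, and *Tbp*, the TATA-binding protein, rose at the lumbar level by 0.37 (adjusted p = 0.0036) and 0.27 (adjusted p = 0.0122). Between levels 11.1% of the subunits and 10% of the initiation and control genes were called, against 18.9% of all genes. As deposited, where 17.1% of all genes were called, *Zfp143* was still called (0.24), *Polr2k* (0.22), *Polr3f* (0.08), and *Tbp* (0.14) were not, and *Snapc1*, a subunit of the snRNA-activating complex, was called lower (−0.28, adjusted p = 0.0437). After rebuilding, where 19.5% were called, *Polr2f* was called lower (−0.13, limma, adjusted p = 0.0421). *Polr3f* (0.15), *Zfp143* (0.31), and *Tbp* (0.21) were called higher there, and *Polr2k* (0.30, adjusted p = 0.056) was not called. Without brachial KO replicate 2 the brachial medians of these 5 lists were 0.05, −0.10, −0.17, −0.13, and 0.02 in the order given, *Polr2k* was still called (−0.61), and *Pou2f1* was not (0.63, unadjusted p = 0.0857 from limma).

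**Figure D5:**
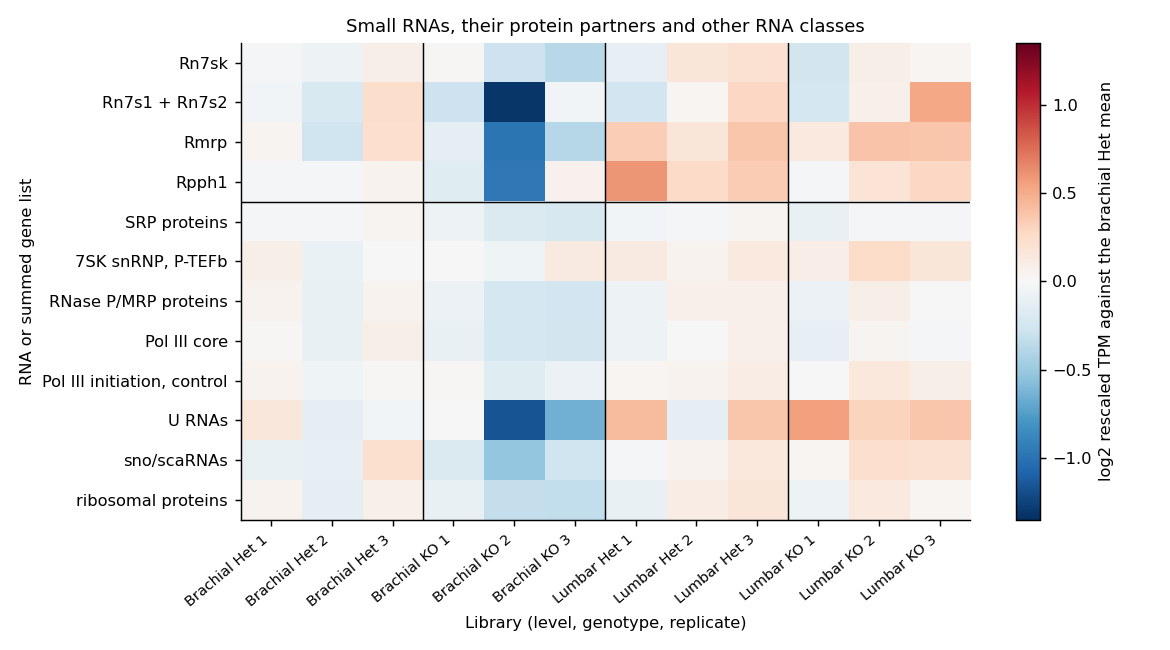
Colour gives, for each library, the log2 of rescaled TPM of each small RNA (above the line) or of the summed genes of a list (below it) minus the brachial Het mean. Brachial KO replicate 2 is lowest for 7SL (−1.31), *Rmrp* (−0.99), *Rpph1* (−0.96) and the U RNAs (−1.16), and *Rn7sk* is at −0.28 there.

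Genes that start within 1 kb of a member lie on the opposite strand in each case. None was called, against 3.14% of all genes in brachial KO, 1.76% in lumbar KO, and 18.9% between levels. *Rps29*, a ribosomal protein gene, starts 109 bases from *Rn7s1* and differed by −0.31 on the log2 scale in brachial KO (limma, adjusted p = 0.358) and −0.02 in lumbar KO. *Parp2*, a DNA repair enzyme gene, starts 126 bases from *Rpph1*, and *Ccdc107* and *C920006O11Rik* start 281 bases from *Rmrp* and *Rn7sk*. *Parp2* differed by −0.13 and 0.15, *Ccdc107* by −0.26 and −0.15, and *C920006O11Rik* by −0.32 and −0.31 in brachial and lumbar KO.

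Other small noncoding RNAs stood far below the set. The highest by mean TPM were *Scarna2* (759), *Scarna10* (713), and *Gm22442* (654), guide RNAs for modification of other small RNAs, against a lowest value of 16056 TPM for any member. As deposited, *Scarna10* was, like 7SL, lowest in brachial KO replicate 2 at 366 TPM, and *Scarna2* stood there at 807 TPM, inside its range of 611 to 886 TPM. These values are not rescaled, and that library had the highest size factor, 1.240. Among the 35 highest other small RNAs, which were small nuclear, small nucleolar, and guide RNAs and *Bc1*, 34 lay below 0 in brachial KO (median −0.57 on the log2 scale) and 7 (20.0%) were called lower, against 3.14% of all genes. They include *Rnu2-10* (−0.93), a gene of the U2 spliceosomal RNA, and *Snora73b* (−0.80), a small nucleolar RNA, both with overlapping genotypes. Of the 7, the snRNA genes *LOC115487916* (−1.17) and *Gm25360* (−0.85) did not overlap between genotypes after rescaling, where 20.2% of all genes did not. *Rnu2-10* and *Gm24950*, also called, ran close together, at 160.9 and 159.1 TPM in brachial Het replicate 1. In brachial KO replicate 2 they stood at 53.3 and 51.5 TPM. Whether such genes share reads was not tested, so the 7 may not be separate RNAs. Without brachial KO replicate 2, 33 of 35 lay below 0 with a median of −0.28 and 0 were called, against 2.99% of all genes. As deposited, 28 lay below 0 with a median of −0.41 and 6 (17.1%) were called, against 7.43% of all genes. In lumbar KO 0 of 35 were called, against 1.76% of all genes, with 8 below 0. Between levels 1 was called lower and 6 higher at the lumbar level, 20.0% against 18.9% of all genes, among them *Gm25360* (0.94, limma, adjusted p = 0.0229) and *Rnu3b3* (0.66, adjusted p = 0.0417), a U3 gene, and as deposited these counts were 2 and 4, 17.1% of the 35 and of all genes alike. The lists were formed with values known, so these counts are a description.

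Of 7 tested genes for other small noncoding RNAs, mostly of polymerase III, 2 were called lower in brachial KO, where 3.14% of all genes were called: *Rny1* (−1.31), a Y RNA, and *Vaultrc5* (−1.64), a vault RNA at 1.38 ± 0.912 rescaled TPM in Het. Neither was called without brachial KO replicate 2 (−1.06 and −1.60). In lumbar KO 0 of 7 were called, against 1.76%. *Bc1*, a neuronal RNA of polymerase III that represses translation in dendrites, fell by 0.54 at the lumbar level (limma, adjusted p = 0.0328) and was also called as deposited (−0.68).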

How the data were processed

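Total RNA depleted of rRNA (TruSeq Stranded Total RNA with Ribo-Zero) was sequenced in 12 libraries, grouped by their labels. Per the submitters' processing notes, Trimmomatic 0.38 was used for trimming, HISAT2 2.1.0 and Bowtie2 2.3.4.1 for alignment to mm10, and StringTie 2.1.3b for abundance. The deposited TPM values were scaled by the authors to one total per library, the deposited FPKM values to length and mapped fragments, and the deposited coverage is mean depth per base. Aligned bases were taken from coverage over FPKM. The tables hold no counts, so counting error is unknown.

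Symbols came from RefSeq GRCm38.p6 (45679 of 45777 identifiers). Fits used limma 3.58.1 in R 4.3.3 on log2(rescaled TPM + 0.1) with an eBayes trend, over genes with mean TPM of at least 0.5, within a level (6 libraries) or over all 12, after tests on simulated data, and p-values were adjusted by Benjamini-Hochberg over all genes tested. Whether libraries come from separate embryos is not given per library, so p-values measure the spread between libraries. Partner genes named are those called and otherwise the 2 highest of each list. Members and lists were chosen with earlier results of these data known. Same-numbered libraries did not deviate together (r from −0.216 to 0.34), so replicate numbers were not used to pair libraries. Alternatives were other scalings, pseudocounts and filters, no trend, a replicate block, and leaving out each library. The sequence of 7SL is not reported here.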

Additional observations from a re-analysis of the deposited data

How the results depend on the processing

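No alternative gave a call for any of the 5 genes in KO against Het. Called genes in brachial KO, 531 after rescaling, numbered 1258 on TPM as deposited and 801 with no filter, and 277 to 1426 when 1 library was left out (lowest without brachial Het replicate 3, highest without brachial KO replicate 1). In lumbar KO the 291 called genes became 178 with a pseudocount of 1 and 619 with no filter, and 291 to 452 when 1 library was left out (highest without lumbar KO replicate 2). Between levels the 3161 called genes became 2102 to 3596 when 1 library was left out (2102 without brachial Het replicate 2, 2105 without brachial KO replicate 2), and 1970 on TPM as deposited without brachial KO replicate 2. For the difference of KO effects between levels, 1 gene was called with no filter and with the replicate block, and 0 to 1 when 1 library was left out. The median shift of other genes in brachial KO, as deposited, was 0.0875 without brachial KO replicate 2 and at most 0.2101.

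Signs turned in a few cases. On TPM as deposited *Rn7sk* differed by −0.0068 between levels, and the difference of KO effects was −0.0798 for *Rn7sk* and −0.0486 for *Rpph1*. Also as deposited, *Rpph1* differed by 0.0339 in brachial KO without replicate 2. When 1 library was left out, lumbar KO differences ranged from −0.0996 to 0.2812 for *Rn7s1*, −0.0976 to 0.2838 for *Rn7s2*, and −0.053 to 0.095 for *Rmrp*, and the difference of KO effects from −0.0204 to 0.192 for *Rn7sk* and −0.1918 to 0.3199 for *Rpph1*. *Rmrp* between levels was called without brachial Het replicate 3 (0.62, limma, adjusted p = 0.0465), with a pseudocount of 0.001 (adjusted p = 0.048), without the trend (adjusted p = 0.0386), over protein-coding genes (adjusted p = 0.028), and, without brachial KO replicate 2, as deposited (adjusted p = 0.0284) and rebuilt (adjusted p = 0.0337), and its adjusted p lay between 0.0206 and 0.366 over all alternatives apart from quantile normalization, where it was 1.

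In aligned bases the summed shares were 5.26%, 4.092%, 5.613%, and 5.549% in brachial Het, brachial KO, lumbar Het, and lumbar KO. The replicate block changed no call of the 5 genes (*Rmrp* between levels 0.54, adjusted p = 0.182), and it gave 189 lower and 342 higher genes in brachial KO in place of 140 and 391. Quantile normalization gives the highest ranks nearly the same value in every library, so by its construction the differences of the 5 genes lay within 0.0087 of 0, with *Rn7s1* at 0.0087 in brachial KO, −0.0024 between levels, and −0.0048 for the difference of KO effects. Values of gene lists as deposited and after rebuilding were added after seeing the data. The cause of the other changes was not tested.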

Other observations

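Over 14967 genes with a mean of at least 1 TPM, those whose rescaled log2 values were most like the summed level of the 5 RNAs across 12 libraries were *Gm26448*, a snoRNA (Pearson's r = 0.969), the pseudogenes *Gm10257* (0.965), *H3f3a-ps1* (0.947), and *H3f3a-ps2* (0.947), and *Snora73a* (0.945). The most opposite were *Rrbp1* (−0.919), a ribosome receptor of the endoplasmic reticulum, *Garre1* (−0.917), and *Frem2* (−0.906), a basement membrane protein. *Gm26448* was lowest in brachial KO replicate 2 at 61.0 rescaled TPM, against a mean of 150 over all libraries, and *Rrbp1* was highest there at 19.7. These values share the size factors of the 12 libraries.

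Of 87 cytosolic ribosomal protein genes, 84 lay below 0 in brachial KO (median −0.25 on the log2 scale), and 1 was called lower (1.15%, against 3.14% of all genes). As deposited, 76 lay below 0 with a median of −0.09, and the summed share of TPM overlapped, at 6.24% to 6.66% in brachial Het and 6.23%, 6.44%, and 5.52% in brachial KO. Relative to the brachial Het mean, the summed rescaled level was −0.10, −0.32, and −0.34 in brachial KO replicates 1 to 3, and −0.12 to 0.07 in brachial Het. In lumbar KO 54 lay below 0 (median −0.02, 0 called, against 1.76% of all genes). Between levels 3 lay below 0 (median 0.17 higher at the lumbar level), and 5 were called higher (5.75%, against 18.9% of all genes). As deposited, 26 lay below 0 between levels, with a median of 0.03.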
